A study of Mus musculus with 6 samples.

Results

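The genes described here are 10 that are normally silenced, or nearly so, in the mature beta cell: *Ldha*, *Slc16a1*, *Hk1*, *Hk2*, *Acot7*, *Oat*, *Igfbp4*, *Cxcl12*, *Smad3* and *Pdgfra*. They were listed by name, by a rule that uses no measured value but was written with earlier results of these data known, and each was found in the count table, which makes them 10 of 22923 gene names. RNA was sequenced from pancreatic islets of wild-type mice (WT) and of mice with a global deletion of *Ffar2* (*Ffar2*-/-), the gene of free fatty acid receptor 2, with 3 libraries per genotype. According to the methods, the mice were offspring of heterozygous parents on a C57BL/6J background, and the islets were handpicked after collagenase digestion and left to recover overnight in culture. All mice were fed normal chow and were 10 to 12 weeks old by the sample labels, while the supplement of the paper describes them as males of a somewhat older age. The islets of 2 mice were pooled for each RNA sample. The study describes the libraries of a genotype as triplicates and counts them as n = 3. It does not say whether each came from its own pool of mice, so p-values measure the spread between these libraries, which may be technical.

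A beta cell couples glucose to insulin secretion by sending nearly all pyruvate into mitochondria, and it keeps genes that would bypass this route at very low levels. The best known of these so-called disallowed genes encode lactate dehydrogenase A, the monocarboxylate transporter MCT1 and high-affinity hexokinases, through which pyruvate, lactate or low glucose could act on the cell at the wrong time. Others encode growth factor, chemokine and matrix signalling proteins. The same genes are ordinary components of acinar, endothelial and mesenchymal cells, which remain in variable amounts with isolated islets. In bulk RNA, fewer cells of a type and less RNA per cell cannot be told apart.

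Total counts used ranged from 17067263 to 22792367 per library. *Ffar2* itself, the targeted gene, had 774, 559 and 550 counts in WT and 1750, 750 and 673 counts in the other genotype (log2 fold change 0.89 with a standard error of 0.21 and an adjusted p of 0.852 in edgeR's quasi-likelihood test), a direction opposite to that of a deleted gene. The second group is therefore called the libraries labelled *Ffar2*-/-, and every direction between the groups rests on that label. None of 14082 genes tested, 0%, passed an adjusted p of 0.05 in edgeR (Benjamini-Hochberg adjustment) or limma-voom, and 8 did in DESeq2. At an unadjusted p under 0.05 the counts were 661 genes (4.69%) in edgeR, 629 in limma-voom and 692 in DESeq2. Of the 661, 54.9% were higher in the libraries labelled *Ffar2*-/-, a share that was 8.8% of 648 genes under scaling by total count only, which moved the median log2 fold change of all genes from 0.016 to -0.139. The beta cell list was detected in all its 17 measured members, with *G6pc2* and *Slc30a8* the highest per kilobase, while *Ins1*, *Ins2* and *Iapp* were among 15 genes skipped by the authors' caller and were not used here.

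The libraries differed in the RNA of other cell types. A score of acinar content, the mean log2 CPM (counts scaled to library size) over 28 acinar genes relative to the mean of the 6 libraries, was -0.18, 0.12 and -1.81 in WT (replicates 1 to 3 in order, here and in all later values) and -1.65, 0.99 and 2.54 in the libraries labelled *Ffar2*-/-. These genes took from 1.43% to 5.55% of the counts in WT and from 1.59% to 26.5% in the libraries labelled *Ffar2*-/-. A stromal score over 22 mesenchymal and 16 endothelial genes was -0.49, 0.81 and 0.06 in WT and -0.80, -0.47 and 0.89 in the libraries labelled *Ffar2*-/-, with summed shares of 0.0956% to 0.134% and 0.0872% to 0.111%. No acinar or endothelial gene of these lists was at 0 in any library, and 1 mesenchymal gene was at 0 in some. WT replicate 2 and replicate 3 labelled *Ffar2*-/- thus had the most stromal RNA, and the latter also had the most acinar RNA. The acinar and stromal scores were themselves related to a degree that did not pass the test (Pearson's r = 0.55, exact permutation p = 0.268; Spearman's rho = 0.54, p = 0.297).

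**Figure D1:**
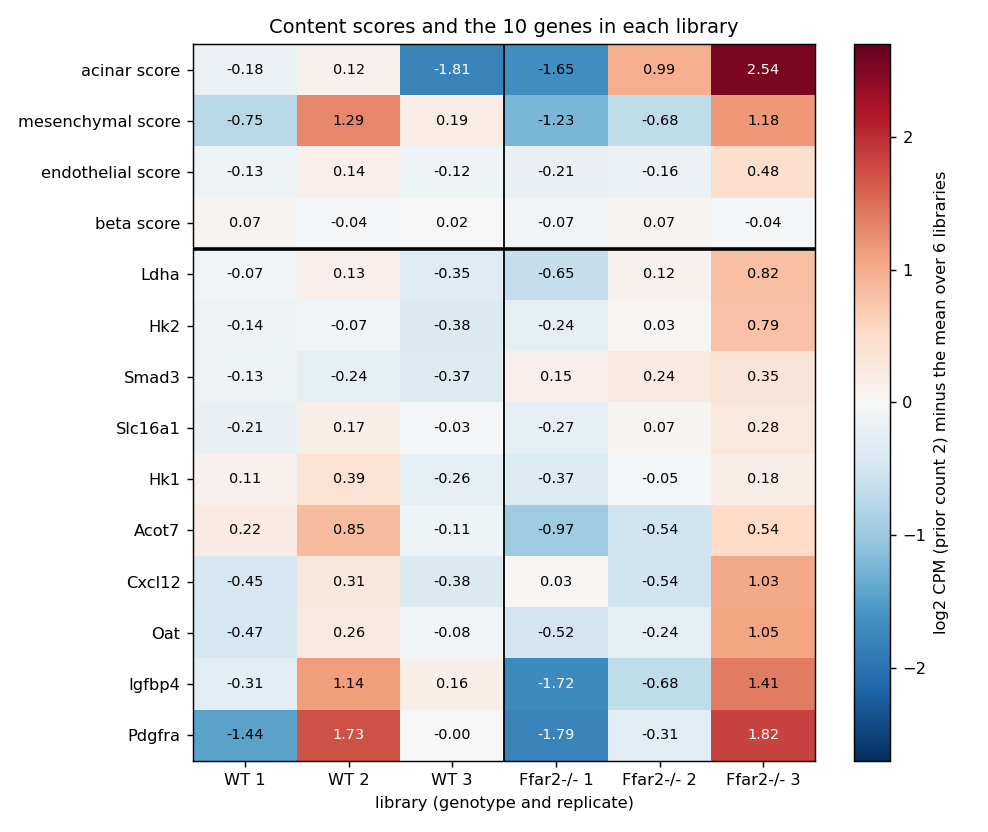
Heat map of 4 content scores (upper rows) and the 10 genes (lower rows) in the 6 libraries (columns), as log2 CPM with a prior count of 2 minus the mean over the 6 libraries. Replicate 3 labelled Ffar2-/- is the highest library for the acinar score (2.54) and for 8 of the 10 genes. The beta cell score stays between -0.07 and 0.07. The share of counts of the beta cell genes, not drawn, was 0.895% in replicate 3 labelled Ffar2-/- and 1.15% to 1.38% in the other libraries.

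All 10 genes passed the filter on low counts, and their levels in WT islets spanned a wide range. Levels are compared between genes as CPM per kilobase of exon, and percentiles are among 12772 tested genes with a known exon length, whose median in WT was 5.06 CPM per kilobase. *Oat* (11.1 ± 2.79, percentile 69.9) and *Ldha* (8.26 ± 1.38, percentile 62.6; SD, n = 3 throughout) were above the median. The other 8 genes were below it, from *Acot7* (3.86 ± 1.36, percentile 43.2) through *Igfbp4* (2.56 ± 1.37), *Hk1* (2.06 ± 0.458), *Smad3* (1.17 ± 0.101), *Cxcl12* (0.996 ± 0.312) and *Slc16a1* (0.969 ± 0.13) to *Hk2* (0.334 ± 0.0388) and *Pdgfra* (0.088 ± 0.0973, percentile 0.681). In this order, *Oat* and *Ldha* lay within their spread of each other, as did *Acot7*, *Igfbp4* and *Hk1* as neighbours, and *Smad3*, *Cxcl12* and *Slc16a1*. The order depended on the gene model, since with the longest transcript in place of all exons *Ldha* (15.1) stood at percentile 70.2 and *Oat* at 64.9.

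**Figure D2:**
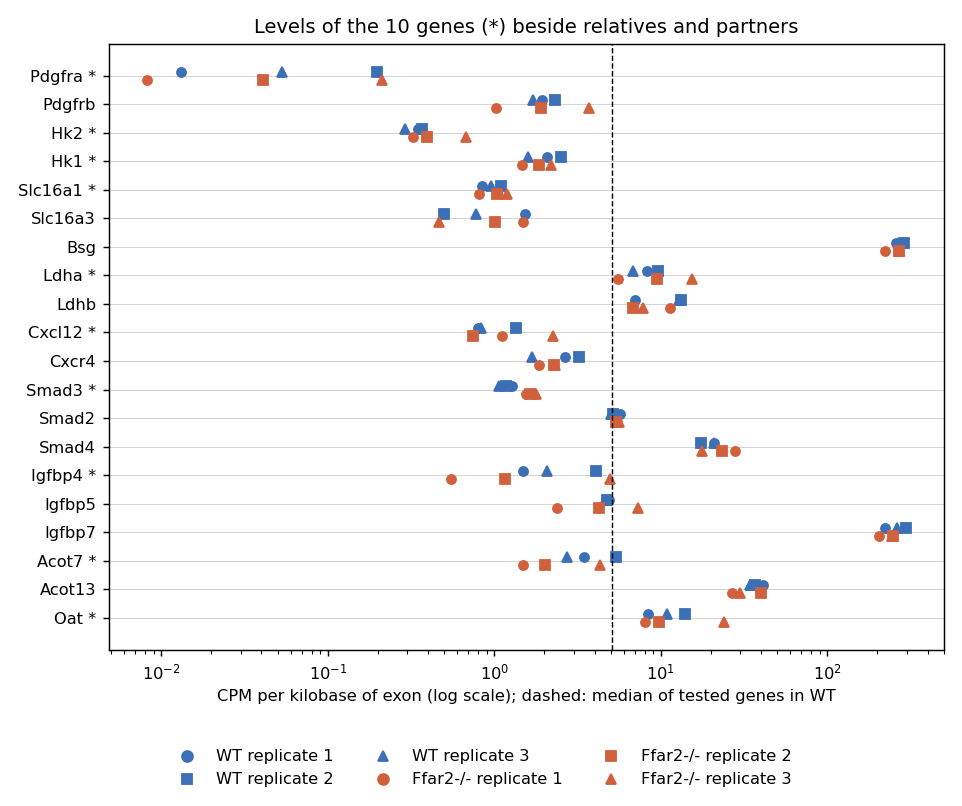
Levels of the 10 genes (marked *) and of named relatives and partners in each library, as CPM per kilobase of exon on a log scale, with WT in blue and libraries labelled Ffar2-/- in orange. The dashed line is the WT median of tested genes (5.06), and the WT means of 8 of the 10 genes lie below it, while Bsg and Igfbp7 lie far above.

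The hexokinases phosphorylate glucose at the entry of glycolysis. *Hk1* and *Hk2* encode high-affinity forms, which work near their full rate even at low glucose. *Hk1* lies on the minus strand of chromosome 10 of mm10 (62268855 to 62379908), and its exons overlap the antisense gene *Hk1os*, whose reads cannot be told apart here because the use of strand is not given in the sources used here. *Hk1* was at 17.6, 21.4 and 13.6 CPM in WT and at 12.6, 15.8 and 18.6 CPM in the libraries labelled *Ffar2*-/-. The groups overlapped, and the log2 fold change was -0.17, with a standard error of 0.21, a 95% interval from -0.66 to 0.32 and an edgeR adjusted p of 0.896. *Hk2*, on the minus strand of chromosome 6 (82725027 to 82774454), was at 2.07, 2.18 and 1.73 CPM in WT and at 1.93, 2.34 and 4.04 CPM in the libraries labelled *Ffar2*-/-. Its highest value was in replicate 3 labelled *Ffar2*-/- and the remaining 5 libraries were close together (log2 fold change 0.46 with a standard error of 0.33, edgeR adjusted p = 0.852). Without that library the log2 fold change was 0.09, and as each library was left out it ranged from 0.09 to 0.67 for *Hk2* and, with WT replicate 2 left out at the upper end, from -0.32 to -0.0031 for *Hk1*. Per kilobase, *Hk1* was 3.21 to 6.89 times *Hk2* across the 6 libraries, and 5.92 to 12.7 times with the longest transcripts.

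*Ldha* and *Slc16a1* act at the other end of glycolysis. *Ldha* encodes the lactate dehydrogenase subunit that favours conversion of pyruvate to lactate, and lies on the plus strand of chromosome 7 (46845804 to 46855627), at a distance of 16.0 Mb from *Ffar2*. It was at 27.6, 31.8 and 22.7 CPM in WT and at 18.4, 31.4 and 51.1 CPM in the libraries labelled *Ffar2*-/-. The lowest and the highest library were thus both of the latter group, and the fold change did not pass the test (log2 fold change 0.29 with a standard error of 0.34, edgeR adjusted p = 0.888). It was -0.14 without replicate 3 labelled *Ffar2*-/- and 0.59 without replicate 1. *Ldhb*, which encodes the other main subunit, was 0.509 to 2.03 times *Ldha* per kilobase, so that the order of these subunits differed between libraries. *Slc16a1*, on the plus strand of chromosome 3 (104638668 to 104658462), encodes the plasma membrane transporter of lactate and pyruvate MCT1. Its values were 3.74, 4.89 and 4.24 CPM in WT and 3.57, 4.57 and 5.28 CPM in the libraries labelled *Ffar2*-/-, the narrowest spread of the 10 genes (1.48-fold from the lowest to the highest). The groups overlapped (log2 fold change 0.06 with a standard error of 0.22 and a 95% interval from -0.47 to 0.58, edgeR adjusted p = 0.969). *Bsg*, which encodes the chaperone of MCT1, was 226 to 308 times as high per kilobase, and *Slc16a3*, which encodes the exporter MCT4, was 0.389 to 1.84 times as high.

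Promoter sequences were read for all 10 genes from RefSeq (GRCm38.p6, from 250 bases before to 50 after an annotated start of the gene). They were searched on both strands for ACGTG, the core of the hypoxia response element, which is also contained in the E-box CACGTG. The letters were found in 5 of the 12 promoters of these genes, 1 each of *Ldha*, *Slc16a1*, *Hk1*, *Hk2* and *Oat*. They were found in 19.6% of all 32851 promoters of this length. *Ldha* and *Hk1* had 2 promoters each. For *Hk1* the letters were only in the promoter 39487 bases inside the gene, and the one at its start held none. The only *Acot7* promoter lay 7508 bases inside the gene coordinates used here, so the start of those coordinates was not searched. The second *Ldha* promoter, which held none of the letters, lay 1278 bases inside. The *Ldha* and *Hk2* promoters are shown as examples that hold these letters, in 3 and 2 places. *Slc16a1* and the inner *Hk1* promoter also hold them in 2 places and *Oat* in 1, and these are not shown. The promoters of *Igfbp4* and *Pdgfra* are shown because these genes varied the most between libraries. Capitals mark each place with its letters in either orientation, and the sequences run 5′ to 3′ on the strand of the gene, for *Ldha* at chr7:46845554-46845853 (plus), *Hk2* at chr6:82774405-82774704 (minus), *Igfbp4* at chr11:99040994-99041293 (plus) and *Pdgfra* at chr5:75152001-75152300 (plus).
Ldha: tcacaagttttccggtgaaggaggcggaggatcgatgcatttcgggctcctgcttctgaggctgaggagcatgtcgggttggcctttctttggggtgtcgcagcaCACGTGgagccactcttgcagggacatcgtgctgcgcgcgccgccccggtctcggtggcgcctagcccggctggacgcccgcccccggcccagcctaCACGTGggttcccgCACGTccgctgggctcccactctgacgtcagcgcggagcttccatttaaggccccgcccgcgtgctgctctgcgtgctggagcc
Hk2: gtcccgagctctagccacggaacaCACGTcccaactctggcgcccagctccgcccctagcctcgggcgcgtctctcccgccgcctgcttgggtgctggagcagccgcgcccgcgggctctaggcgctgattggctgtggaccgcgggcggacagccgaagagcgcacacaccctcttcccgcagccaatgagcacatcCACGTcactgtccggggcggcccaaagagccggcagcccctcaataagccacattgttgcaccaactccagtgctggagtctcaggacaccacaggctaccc
Igfbp4: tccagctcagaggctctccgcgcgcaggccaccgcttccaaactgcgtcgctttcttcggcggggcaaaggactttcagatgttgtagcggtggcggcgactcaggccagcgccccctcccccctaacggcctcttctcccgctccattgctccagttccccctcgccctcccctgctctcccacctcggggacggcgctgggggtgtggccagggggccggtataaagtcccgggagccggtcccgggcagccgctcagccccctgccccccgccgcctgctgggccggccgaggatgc
Pdgfra: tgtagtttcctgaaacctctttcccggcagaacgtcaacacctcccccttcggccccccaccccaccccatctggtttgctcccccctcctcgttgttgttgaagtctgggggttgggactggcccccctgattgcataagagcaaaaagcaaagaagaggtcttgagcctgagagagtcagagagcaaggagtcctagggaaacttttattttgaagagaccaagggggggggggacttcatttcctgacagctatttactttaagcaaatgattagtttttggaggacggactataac
The *Igfbp4* and *Pdgfra* windows hold none of these letters. CG dinucleotides numbered 30 in the *Ldha*, 25 in the *Hk2*, 27 in the *Igfbp4* and 5 in the *Pdgfra* promoter, beside a median of 7 over all promoters. A match describes the letters only and does not show a site that is used.

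*Acot7* and *Oat* belong to other branches of metabolism. *Acot7*, on the plus strand of chromosome 4 (152178100 to 152271855), encodes an acyl-CoA thioesterase, which splits long-chain acyl-CoA into free fatty acid and coenzyme A. It was at 7.35, 11.4 and 5.82 CPM in WT and at 3.16, 4.27 and 9.18 CPM in the libraries labelled *Ffar2*-/-. Replicates 1 and 2 of the latter group were below all WT libraries and replicate 3 was not. The log2 fold change was -0.58, with a standard error of 0.43 and an edgeR adjusted p of 0.854. It was -1.15 without replicate 3 labelled *Ffar2*-/- (adjusted p = 0.564 from edgeR), -0.27 without WT replicate 2 and -0.29 without replicate 1 labelled *Ffar2*-/-. *Acot13*, a small thioesterase of mitochondria, was 6.87 to 19.7 times *Acot7* per kilobase. *Oat*, on the minus strand of chromosome 7 (132557475 to 132576398), encodes ornithine aminotransferase, which links ornithine to glutamate and proline. It was at 19.9, 33.0 and 25.9 CPM in WT and at 19.1, 23.2 and 57.2 CPM in the libraries labelled *Ffar2*-/-. A single library, replicate 3 labelled *Ffar2*-/-, was far above the rest (log2 fold change 0.33 with a standard error of 0.42, edgeR adjusted p = 0.898), and without it the log2 fold change was -0.32.

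The remaining 4 genes encode secreted and signalling proteins. *Igfbp4*, on the plus strand of chromosome 11 (99041260 to 99052643), encodes a secreted protein that binds insulin-like growth factors. It was at 6.60, 18.1 and 9.19 CPM in WT and at 2.42, 5.09 and 21.9 CPM in the libraries labelled *Ffar2*-/-, a 9.06-fold range. The log2 fold change was -0.23, with a standard error of 0.77 and an edgeR adjusted p of 0.963, -1.61 without replicate 3 labelled *Ffar2*-/- and 0.25 without replicate 1. *Igfbp7* and *Igfbp5*, of the same family, were 49.3 to 371 and 1.15 to 4.31 times *Igfbp4* per kilobase.

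*Pdgfra*, on the plus strand of chromosome 5 (75152291 to 75198204), encodes a receptor of platelet-derived growth factors that marks mesenchymal cells. Its exons overlap *Gm42802*, *Gm42803* and *Mir7025*. It had 3, 41 and 11 counts in WT and 2, 7 and 31 in the libraries labelled *Ffar2*-/-, or 0.132, 1.98 and 0.53 and 0.0821, 0.41 and 2.12 CPM. It was the lowest and the most variable of the 10 genes, with a 25.9-fold range, and WT replicate 2 and replicate 3 labelled *Ffar2*-/- held most of its reads. The log2 fold change was -0.09, with a standard error of 1.17, a 95% interval from -2.85 to 2.66 and an edgeR adjusted p of 0.991, -1.92 without replicate 3 labelled *Ffar2*-/- and 0.51 without replicate 1. *Pdgfrb*, the related receptor of pericytes, was 11.7 to 146 times as high per kilobase.

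*Cxcl12*, on the plus strand of chromosome 6 (117168535 to 117181368), encodes a chemokine that signals through the receptor encoded by *Cxcr4*. It was at 6.51, 11.1 and 6.84 CPM in WT and at 9.11, 6.09 and 18.4 CPM in the libraries labelled *Ffar2*-/-. The groups overlapped, and the log2 fold change of 0.45, with a standard error of 0.42 and an edgeR adjusted p of 0.875, was -0.09 without replicate 3 labelled *Ffar2*-/-. *Cxcr4* was 1.03 to 3.36 times *Cxcl12* per kilobase.

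*Smad3*, on the minus strand of chromosome 9 (63646767 to 63757994), encodes a transcription factor that is activated by TGF-β and activin receptors. It was at 7.04, 6.48 and 5.92 CPM in WT and at 8.54, 9.13 and 9.87 CPM in the libraries labelled *Ffar2*-/- (means 6.48 ± 0.561 and 9.18 ± 0.666, SD, n = 3 each). It was the only 1 of the 10 genes whose groups did not overlap, beside 11.2% of all genes tested (1578 genes). The log2 fold change of 0.50 had a standard error of 0.15 and a 95% interval from 0.14 to 0.86, and did not pass the test (edgeR unadjusted p = 0.0127, adjusted p = 0.852). It ranged from 0.44 to 0.56 as each library was left out. The unadjusted edgeR p was 0.0532 without WT replicate 3 and 0.115 when libraries were scaled by total count, where the log2 fold change was 0.34 against a median of -0.139 over all genes. *Smad2*, which acts beside *Smad3*, and *Smad4*, their shared partner, were 3.17 to 4.71 and 9.97 to 19.7 times *Smad3* per kilobase.

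**Figure D3:**
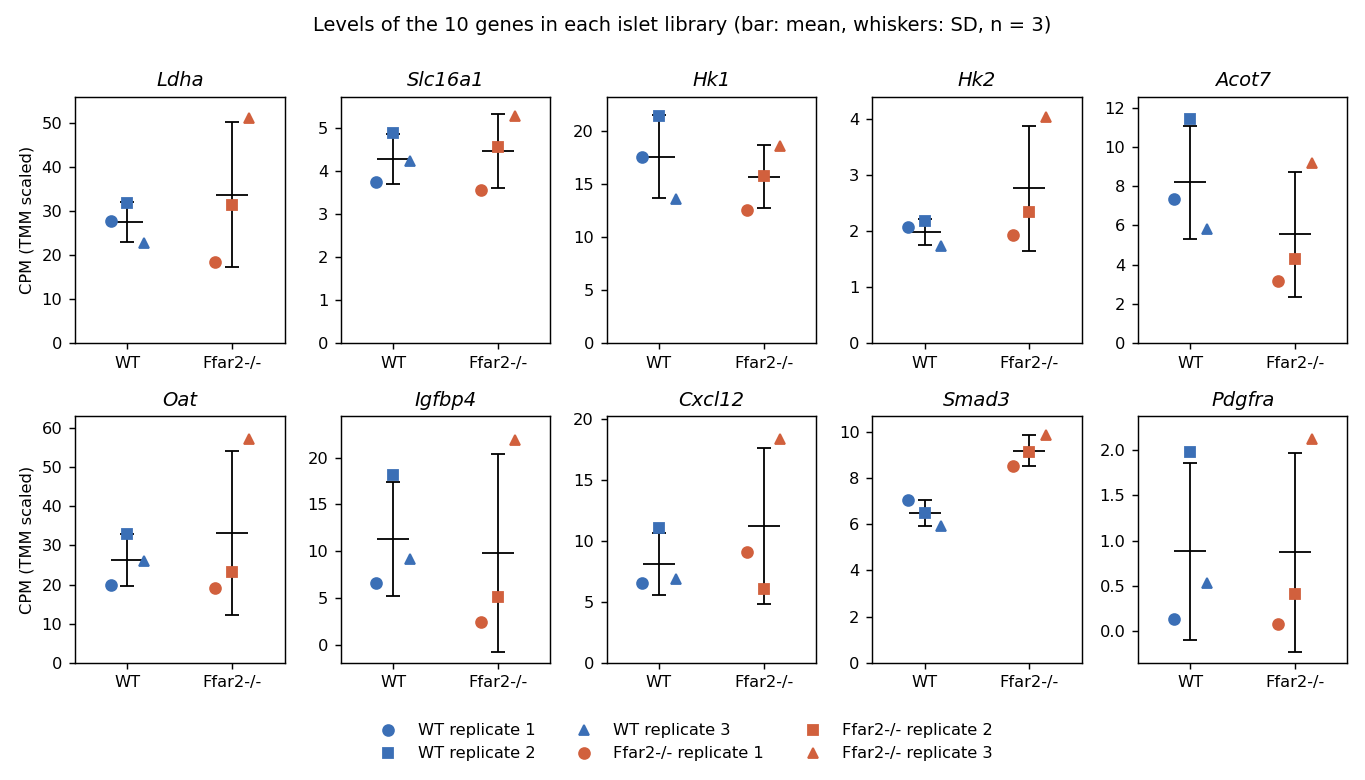
CPM of each of the 10 genes in the 6 libraries, with WT in blue and libraries labelled Ffar2-/- in orange, a bar at the mean and whiskers of 1 SD (n = 3). Replicate 3 labelled Ffar2-/- is the highest orange point in every panel, and only Smad3 has groups that do not overlap.

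Of the 10 genes, 0 passed an adjusted p of 0.05 between the genotypes in edgeR, DESeq2 or limma-voom (background 0% in edgeR), and 1, *Smad3*, had an unadjusted p under 0.05, beside 4.69% of all genes. The log2 fold change was above 0 for 6 genes and below 0 for 4, with a median of 0.17 beside 0.02 over all genes. The 95% intervals of *Slc16a1*, *Hk1* and *Smad3* lay within a 2-fold change in either direction, and those of the other 7 did not. With the acinar score as a covariate, 4 of the 10 had an unadjusted p under 0.05, beside 19% of all genes (2669). These were *Hk1* (log2 fold change -0.37), *Acot7* (-1.11), *Igfbp4* (-1.52) and *Smad3* (0.43), with edgeR adjusted p = 0.154 for *Acot7* and higher for the others. With the stromal score as a covariate there were 3, *Oat* (log2 fold change 0.40), *Cxcl12* (0.57) and *Smad3* (0.51), each with an edgeR adjusted p of 0.725. The background was 6.59% of all genes (928).

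**Figure D4:**
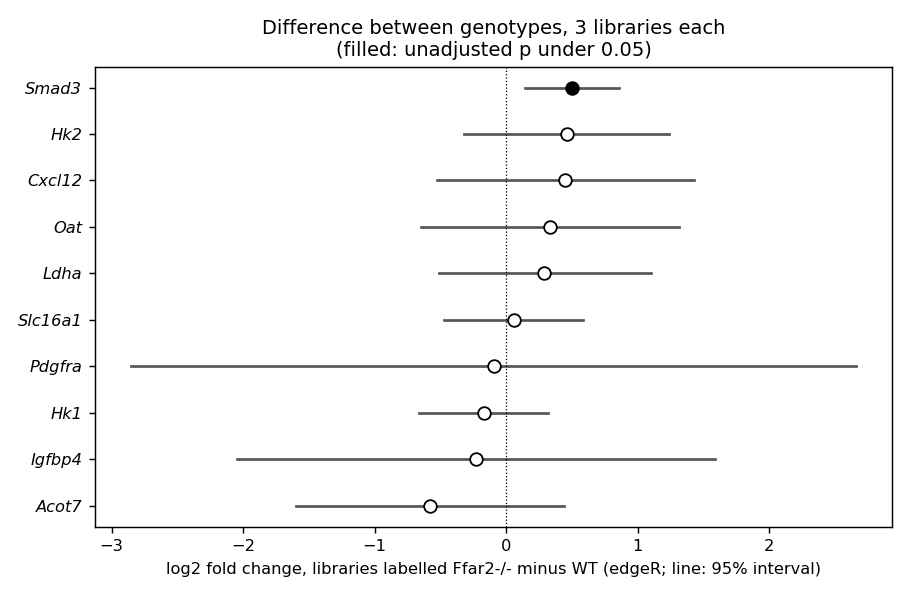
Log2 fold change of the 10 genes between the libraries labelled Ffar2-/- and WT (points, n = 3 each) with 95% intervals (lines), from edgeR. The filled point, Smad3 (0.50), has an unadjusted p under 0.05, and 9 of the 10 intervals span 0.

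The level of each gene was then related to the acinar and the stromal score over the 6 libraries, which gave 20 relations. None of the 10 genes is in a score, but *Pdgfra* itself marks mesenchymal cells and 22 mesenchymal genes are in the stromal score. A relation of *Pdgfra* to that score was therefore to be foreseen. The smallest p that exact permutation allows is 0.00139 for Pearson's r and 0.00278 for Spearman's rho. After adjustment over all 14082 genes, 0 genes (0%) passed an adjusted p of 0.05 for the acinar score and 0 genes (0%) for the stromal score. A gene at the smallest p can pass this adjustment only if many other genes reach it too. These counts of 0 are therefore partly set by the number of libraries. The relations were not computed within a genotype, where 3 libraries are too few for a permutation test to reach 0.05.

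The acinar score went most closely with *Ldha* (r = 0.96, exact permutation p = 0.00694, adjusted p = 0.198; rho = 0.89, p = 0.0333) and *Hk2* (r = 0.93, exact permutation p = 0.00139, adjusted p = 0.17; rho = 1.00, p = 0.00278). Without the libraries farthest from the median score, WT replicate 3 and replicate 3 labelled *Ffar2*-/-, r was 0.94 and 0.98. These 2 of the 10 genes had an unadjusted p under 0.05, beside 15.1% of all genes (2125), a share close to that background. *Slc16a1* followed with r = 0.76 (exact permutation p = 0.0764; 0.76 without the same libraries), *Oat* with 0.74 (p = 0.0847; 0.48 without) and *Smad3* with 0.66 (p = 0.163; -0.01 without). The values for *Hk1*, *Pdgfra*, *Igfbp4*, *Cxcl12* and *Acot7* ran from 0.65 down to 0.48, with exact permutation p from 0.153 to 0.342, and that of *Cxcl12* was -0.44 without these libraries. When libraries were scaled by total count, r was 0.92 for *Ldha* and 0.93 for *Hk2*, but 0.13 for *Slc16a1*, 0.17 for *Hk1* and 0.20 for *Smad3*. Of all genes tested, 1.68% had a larger r with the acinar score than *Ldha* and 3.1% a larger one than *Hk2*.

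The stromal score went most closely with *Pdgfra* (r = 0.97, exact permutation p = 0.00139; rho = 1.00, p = 0.00278), *Igfbp4* (r = 0.97, p = 0.00278; rho = 0.94, p = 0.0167) and *Oat* (r = 0.91, p = 0.00139; rho = 1.00, p = 0.00278), each with an adjusted p of 0.131. Without WT replicate 2 and replicate 3 labelled *Ffar2*-/-, the libraries farthest from the median score, r was 0.84, 0.91 and 0.91. *Slc16a1* (r = 0.87, exact permutation p = 0.0347; rho = 0.94, p = 0.0167) and *Acot7* (r = 0.86, p = 0.0403; rho = 0.77, p = 0.103) came next, with r of 0.57 and 0.58 without these libraries. These 5 of the 10 genes had an unadjusted p under 0.05, beside 18.1% of all genes (2550). Of the other 5 genes, 4 had a relation that rested on the same libraries. For *Cxcl12* r was 0.74 (exact permutation p = 0.0944) and -0.53 without them, for *Ldha* 0.74 (p = 0.0875) and 0.21, for *Hk1* 0.72 (p = 0.121) and 0.04, and for *Hk2* 0.59 (p = 0.203) and -0.47. *Smad3* differed from these, with r = -0.07 (exact permutation p = 0.874, rho = 0.09 with p = 0.919) and r = -0.80 without the same libraries. When libraries were scaled by total count, r was 0.95 for *Pdgfra*, 0.96 for *Igfbp4*, 0.89 for *Oat*, 0.66 for *Slc16a1*, 0.83 for *Acot7* and -0.71 for *Smad3*. With the summed share of counts as the stromal score, r was 0.83 for *Pdgfra*, 0.85 for *Igfbp4*, 0.64 for *Oat* and 0.65 for *Slc16a1*. It was 0.90 for *Acot7*, then the closest of the 10 genes, and -0.34 for *Smad3*. With endothelial genes alone as the score, r was 0.98 for *Oat*, 0.91 for *Cxcl12* and 0.87 for both *Ldha* and *Hk2*. It was then 0.86 for *Igfbp4* and *Pdgfra*, 0.82 for *Slc16a1*, 0.73 for *Acot7*, 0.66 for *Hk1* and 0.32 for *Smad3*. The genes closest to the stromal score thus depended on the list used.

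**Figure D5:**
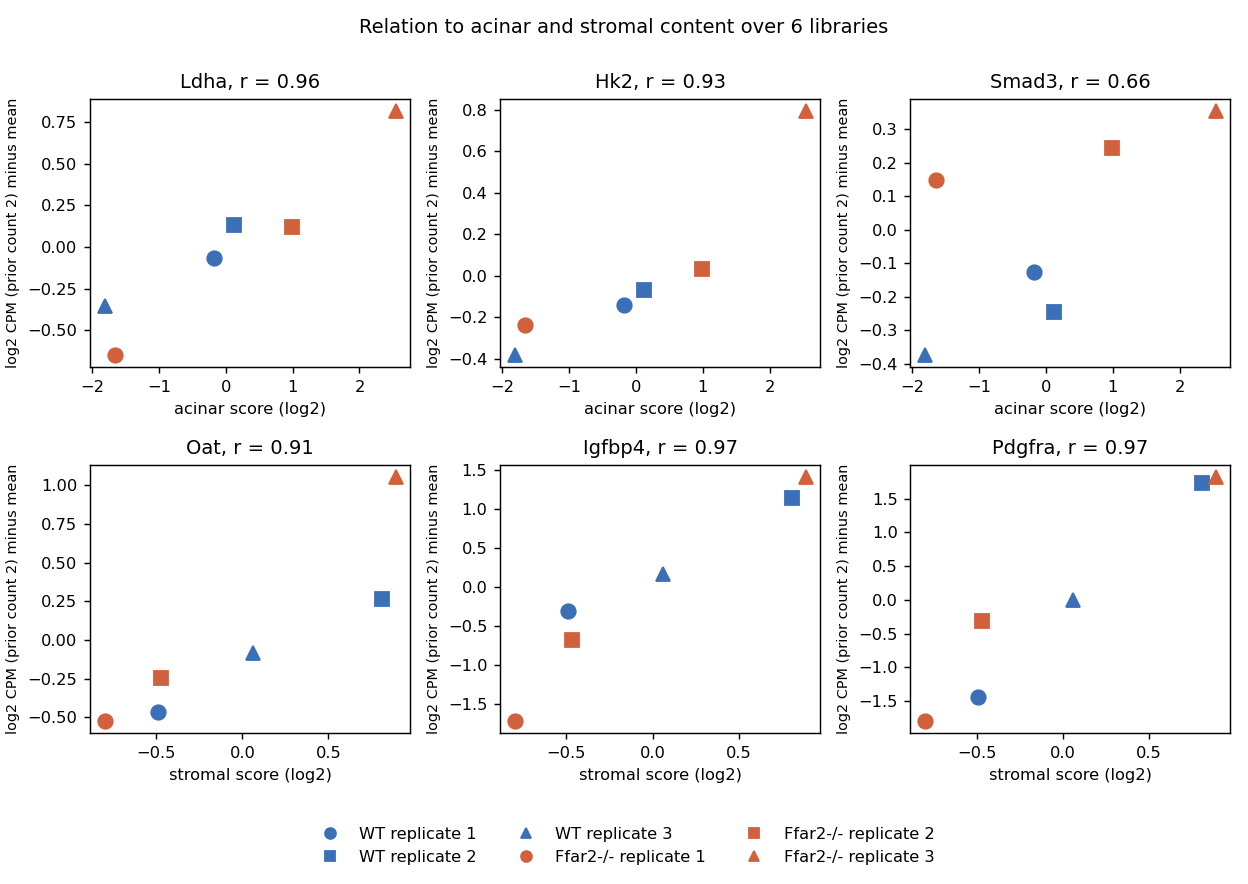
Level of 6 of the genes (vertical axes, log2 CPM with a prior count of 2 minus the mean over libraries) against the acinar score (upper row) or the stromal score (lower row), 1 point per library, WT in blue and libraries labelled Ffar2-/- in orange. Ldha and Hk2 follow the acinar score (r = 0.96 and 0.93) and Oat, Igfbp4 and Pdgfra the stromal score (r = 0.91, 0.97 and 0.97), while Smad3 separates by labelled genotype.

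The 2 highest libraries were WT replicate 2 and replicate 3 labelled *Ffar2*-/- for 8 of the 10 genes, all but *Hk2* and *Smad3*, beside 12.7% of all genes tested (1792). The same held for 19 of 22 mesenchymal, 11 of 16 endothelial, 3 of 16 myeloid, 2 of 9 ductal, 3 of 10 other endocrine, 0 of 28 acinar and 0 of 17 beta cell genes. The mesenchymal and endothelial genes make up the stromal score, so their counts largely restate it. WT replicate 2 and replicate 3 labelled *Ffar2*-/- are the libraries of highest stromal score, and the part of stromal cells in the levels was not tested further. The order of libraries also depended on the scaling. As a share of total counts, replicate 3 labelled *Ffar2*-/- was below replicate 2 of its group for *Slc16a1* (77 of 18604340 against 78 of 17067263). It was below WT replicate 1 for *Hk1* (271 against 400 of 21283444) and *Acot7* (134 against 167). Over the 6 libraries, the log2 range was wider for *Pdgfra* (3.61) and *Igfbp4* (3.13) than for 99.1% and 98.5% of genes, and that of *Slc16a1* (0.55) was near the median of all genes (0.56). As a description over 6 libraries, *Slc16a1* went most closely with *Pdgfra* (r = 0.95). *Igfbp4* went with *Pdgfra* (r = 0.93) and *Acot7* (r = 0.93), and *Ldha* with *Hk2* (r = 0.91). *Oat* went with *Pdgfra* and *Hk1* with *Acot7* (both r = 0.90), while *Smad3* had r = -0.28 with *Acot7*. The genes outside the 10 whose pattern was most like theirs, by Pearson's r of log2 CPM over 6 libraries, were *Sepx1* for *Ldha* (0.999), *Gng11* for *Pdgfra* (0.998), *Cldn11* for *Igfbp4* (0.997), *Ggta1* for *Hk2* (0.997) and *Mylip* for *Oat* (0.997). Such values were common, since 96 to 330 of 14072 genes had r above 0.95 with each of these 5. The corresponding genes were *5830417I10Rik* for *Smad3* (0.997), *Sez6* for *Acot7* (0.996), *Wtip* for *Slc16a1* (0.996), *Mrps34* for *Cxcl12* (0.993) and *Slc24a6* for *Hk1* (0.984).

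Other genes of the same pathways were counted from lists, in none of which a gene passed an adjusted p of 0.05 in edgeR. The counts at an unadjusted p under 0.05 are to be read beside the 4.69% of all genes (661) that reached it in either direction. Of 14 further genes known as disallowed in beta cells, 1 was higher and 0 lower at an unadjusted p under 0.05, with a median log2 fold change of 0.19. The 1 was *Yap1*, a growth-control coactivator (log2 fold change 0.70 with a standard error of 0.20). *Zfp36l1*, which encodes an mRNA decay factor, was at 46.3, 40.9 and 29.5 CPM in WT and at 35.8, 48.8 and 96.2 CPM in the libraries labelled *Ffar2*-/-, again highest in replicate 3. Of 35 genes of glycolysis and lactate handling, 0 were higher and 1 lower, *Pdhb* of the pyruvate dehydrogenase complex (log2 fold change -0.21 with a standard error of 0.09), with a median of -0.09.

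Of 11 genes of ornithine and proline metabolism, 2 were higher and 0 lower at an unadjusted p under 0.05 (4.69% of all genes), *Prodh2* (log2 fold change 3.44, standard error 0.97) and *Aldh18a1* (0.35, standard error 0.12). *Prodh2*, which encodes a hydroxyproline dehydrogenase, was at 0.088, 0.194 and 2.94 CPM in WT and at 14.1, 12.8 and 7.88 CPM in the libraries labelled *Ffar2*-/-, without overlap. The groups of 11.2% of all genes did not overlap either. Of 16 genes of TGF-β and SMAD signalling other than *Smad3*, 10 of insulin-like growth factor binding, 8 acyl-CoA thioesterases, 5 of platelet-derived growth factor signalling, 3 of the CXCL12 axis and 13 of the hypoxia response, 0 had an unadjusted p under 0.05, with medians of 0.05, 0.03, 0.04, 0.21, -0.05 and 0.06. *Vegfa*, the angiogenic target of hypoxia, had a log2 fold change of 0.15 and *Bnip3*, of mitophagy, one of -0.33.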

How the data were processed

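RNA was extracted from islets pooled from 2 mice, with 3 libraries per genotype. The authors aligned reads with TopHat2 2.0.8b to mm10 and ran Cuffdiff 2.1.1. The deposited count table holds the authors' estimated counts, 1 value per gene and library, without normalization. A second deposited table holds the authors' RPKM, 1 pooled value per genotype, which were not tested. It also gives gene coordinates, which were used, and their own comparison (log2 fold changes, a statistic, p-values and adjusted p-values), which was not used. How reads were counted, and whether strand was used, is not given in the sources used here. Names with several values (158) and 15 genes skipped by the caller were left out, and 22750 genes entered the filter.

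Whole-number rounding of the counts was followed by filterByExpr (minimum count 10, minimum total 15), TMM scaling and a 2-sided test with edgeR 4.0.16 (glmQLFit, glmQLFTest; genotype only) in R 4.3.3, with Benjamini-Hochberg adjustment over 14082 genes and a threshold of 0.05. The biological coefficient of variation was 21.5%. Log2 CPM used a prior count of 2. Exon lengths were from GENCODE M21. The relations to the scores were to be adjusted over 20 relations, and were adjusted over all genes instead. Alternatives were RLE and total-count scaling, acinar genes left out, no filter, a replicate block, either score as covariate, DESeq2 1.42.0, limma-voom (limma 3.58.1), other scores, the longest transcript and each library left out. The fit was tested on simulated data. Every pair of libraries of the same genotype differed by more than sampling noise (lowest chi-square per gene 27.6).

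All 10 genes are named, with set partners and, of each other list, the 2 highest per kilobase and the 2 of lowest p, of which the text gives some. A gene that the rule names is not reported here, and the fits and counts include it. The genes and lists were chosen with earlier results of these data known.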

Additional observations from a re-analysis of the deposited data

How the results depend on the processing

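No gene of the 10 passed an adjusted p of 0.05 under any alternative run. For the relations this is partly set by the number of libraries. The smallest exact permutation p for Pearson's r is 0.00139 with 6 libraries and 0.00833 with 5. Over all genes, 1 passed without the filter and 8 in DESeq2. The genes with an unadjusted p under 0.05 numbered 2669 with the acinar score as covariate and 225 to 1238 as each library was left out. Total-count scaling turned *Slc16a1* to -0.12, while the median of all genes moved to -0.139. The acinar score as covariate turned *Ldha* to -0.21, *Slc16a1* to -0.10 and *Oat* to -0.18, and the stromal score turned *Pdgfra* to 0.21. As each library was left out, log2 fold changes ranged from -0.14 to 0.59 for *Ldha*, -0.08 to 0.20 for *Slc16a1*, -0.32 to -0.0031 for *Hk1*, 0.09 to 0.67 for *Hk2*, -1.15 to -0.27 for *Acot7*, -0.32 to 0.61 for *Oat*, -1.61 to 0.29 for *Igfbp4*, -0.09 to 0.75 for *Cxcl12* and -1.92 to 1.32 for *Pdgfra*. The r of *Smad3* with the stromal score was 0.32 with endothelial genes alone, -0.71 with total-count scaling and -0.69 to 0.21 as each library was left out, and that of *Cxcl12* with the acinar score was -0.17 to 0.83. Total-count scaling also lowered the r with the acinar score to 0.13 for *Slc16a1*, 0.17 for *Hk1* and 0.20 for *Smad3*. The cause of these differences was not tested. Replicate numbers did not pair the libraries (correlations of deviations 0.114, -0.138 and -0.344 for numbers 1 to 3). Across numbers, the highest correlation of deviations was 0.591, between WT replicate 2 and replicate 3 labelled *Ffar2*-/-. A fit with the replicate number as a block left 454 genes at an unadjusted p under 0.05 and *Smad3* at 0.50. At 2 to 41 counts per library, *Pdgfra* is limited by depth.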
